A study of Mus musculus with 9 samples.

Results

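A set of 37 genes, out of 24505 in the count table, was abundant in intermediate and type B (In/B) spermatogonia and low in preleptotene (PL) spermatocytes, whether or not the animals made retinoic acid (RA). The genes were chosen by their CPM (a gene's count scaled to 1000000 counts in the library): the lowest of the 3 In/B libraries was at least 10 CPM and at least 5 times the highest of the 6 PL libraries. The In/B floor was met by 8783 genes, of which the 37 were 0.421%. Because these CPM values selected the genes, the distance between In/B and PL is given below as a description, with no test.

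All 9 libraries came from testes of Uchl1-EGFP mice, on a C57BL/6 background outcrossed with CD-1, in which spermatogenesis was synchronized. The pups received WIN18,446, an inhibitor of RA synthesis, at 100 µg/g daily from postnatal day (P) 1, and a single subcutaneous injection of 10 µl RA at 10 µg/µl on P11, so that every group, also the RA-deficient one, had been exposed to RA once. The 3 In/B libraries were EGFP-bright cells from P17 testes, RA-sufficient per the study's methods. The 3 RA-sufficient PL libraries were EGFP-dim cells from P19 testes in which WIN18,446 was not given after the RA injection. The 3 RA-deficient PL libraries were EGFP-dim cells from P19 testes in which WIN18,446 was continued until collection. Per the labels, testes of several pups of a litter were pooled for a cell preparation. Stage, age and fluorescence gate changed together between In/B and PL, and for RA-deficient PL also the inhibitor treatment, and these cannot be told apart. In bulk samples, fewer cells of a type and less RNA per cell cannot be told apart either.

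In and B spermatogonia are the last mitotic germ cells before meiosis. Their daughters, the preleptotene spermatocytes, copy their DNA and then enter meiotic prophase, in which kinetochore and spindle functions are not used until the meiotic divisions. Signalling by RA, which is made in Sertoli and germ cells, induces Stra8 and is known to start spermatogonial differentiation, and whether meiotic entry also needs it is the question of the study.

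The libraries held between 12612959 and 27042274 counts. Sycp3 and Dmc1, genes of the meiotic chromosome axis and of meiotic recombination, fitted the stage labels: Sycp3 was between 85.8 and 107 CPM in In/B and between 434 and 640 CPM in PL. Stra8, which RA induces, was at 478.5, 132 and 125 CPM in RA-sufficient PL and at 351, 341 and 74.5 CPM in RA-deficient PL, so it did not separate the PL groups. Cyp26a1, a gene of RA breakdown, did separate them, at 14.8, 10.2 and 13.9 CPM in RA-sufficient PL and at 0, 0.444 and 1.08 CPM in RA-deficient PL. Kit and Dmrt1, which mark spermatogonia, went against the label of 2 libraries. Kit was at 521 and 486 CPM in RA-deficient PL replicates 1 and 2 but at 18.6 CPM in replicate 3, compared with 325 to 428 CPM in In/B and 20.9 to 44.2 CPM in RA-sufficient PL. Dmrt1 was at 428, 453 and 101 CPM in the RA-deficient libraries, compared with 533 to 754 CPM in In/B and 75.6 to 80.2 CPM in RA-sufficient PL. Replicate 3 was therefore unlike the other two, and the chi-square statistic per gene between replicate libraries was 108 and 107 for its pairs and 19.8 for replicates 1 and 2. Replicates 2 and 3 of In/B and of RA-sufficient PL were the closest pairs, at 6.15 and 10.8, compared with 35.8 to 59.4 for the other pairs of these groups. Uchl1, the gene whose promoter drives EGFP, was at 2419 to 3877 CPM in In/B and 458 to 640 CPM in RA-sufficient PL. In RA-deficient PL it was at 1607, 1760 and 905 CPM, so every library, replicate 3 included, was above all RA-sufficient ones. The summed level of 23 Sertoli cell markers was 5250 to 7406 CPM in RA-sufficient PL, 130 to 597 CPM in In/B and 464 to 795 CPM in RA-deficient PL.

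The 37 genes together took 1850 to 1942 CPM in In/B, 144 to 173 CPM in RA-sufficient PL and 131 to 184 CPM in RA-deficient PL. The group sums were 1880 ± 53.7, 155 ± 15.6 and 165 ± 29.1 CPM (mean ± SD, n = 3). In each PL library the median gene of the set stood at 5.92% to 8.74% of its In/B mean. RA-deficient replicates 1 and 2, in which Kit was as abundant as in In/B, were among them at 8.74% and 8.39%, beside 5.92% in replicate 3. The rule required a low level in every PL library, these included. Contributions of other cell types to the remaining PL counts were not tested.

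**Figure D1:**
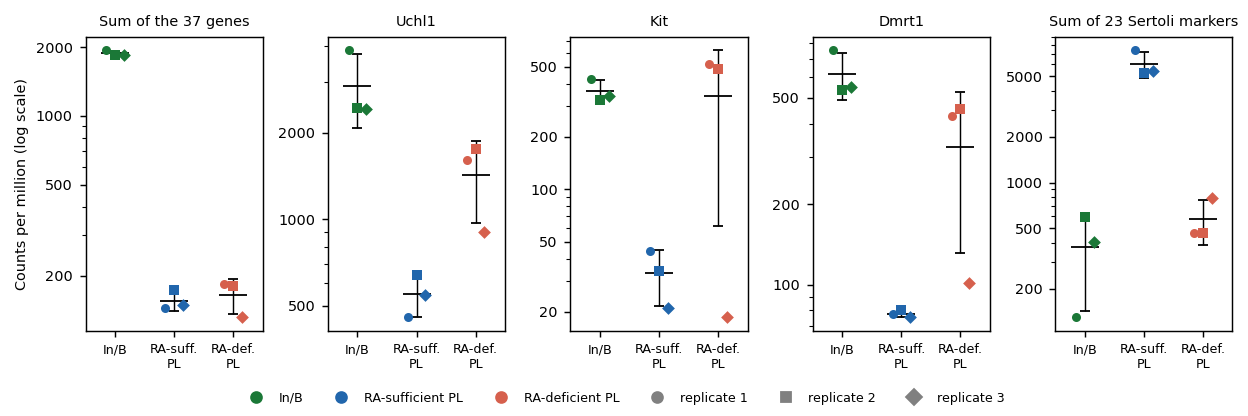
CPM on a log scale for the sum of the 37 genes, Uchl1 (the gene whose promoter drives EGFP), Kit, Dmrt1 and the sum of 23 Sertoli markers, with 1 point per library and the mean ± SD of the 3 libraries of each group. The summed set is low in all 6 PL libraries, at 131 to 184 CPM, as the selection required. Kit and Dmrt1, which did not meet the rule, stay near their In/B level in RA-deficient replicates 1 and 2.

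Few of the genes lacked counts in the PL libraries. Of the 222 PL values (37 genes in 6 libraries), 6 were 0 and 13 were 3 counts or fewer, spread over 9 genes, so most of the set had low but countable values. Per the study, the sorted populations were highly enriched but not fully pure. Whether PL cells or other cells in the sorted samples gave these counts was not tested. The In/B mean exceeded the RA-sufficient mean by 6.63-fold to 59.2-fold (median 14.2) and the RA-deficient mean by 6.41-fold to 71.1-fold (median 13.7). In/B means ran from 11.4 CPM (Khdrbs2) to 183 CPM (Ccng1), with a median of 33.1 CPM. Between the lowest In/B and the highest PL library the ratio ran from 5.06 (Isoc1) to 19.5 (Cpne2), with a median of 6.40, and 6 genes exceeded 10.

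**Figure D2:**
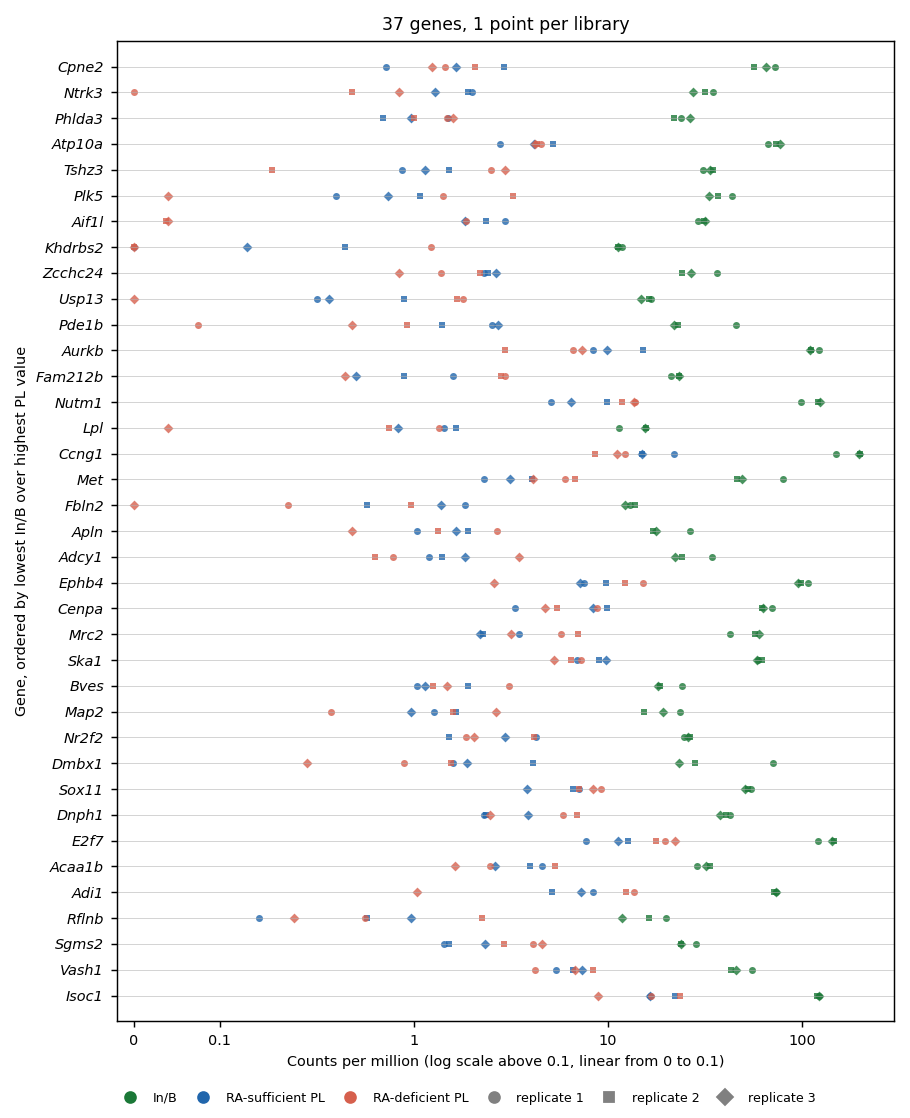
CPM of each of the 37 genes (rows) in each of the 9 libraries (points; colour gives the group and shape the replicate), on an axis that is logarithmic above 0.1 and linear below. The 3 In/B points of every row lie to the right of all 6 PL points, as the selection required, and the widest gap is that of Cpne2.

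Cpne2 encodes a copine, a family of proteins that bind membranes in a calcium-dependent manner, and had the largest ratio. It was at 73.0, 56.8 and 65.6 CPM in In/B, at 0.714, 2.91 and 1.65 CPM in RA-sufficient PL and at 1.45, 2.07 and 1.24 CPM in RA-deficient PL (chr8:97056890-97094429 of NCBIM37, which is mm9, + strand). All 6 PL libraries lay below 3 CPM, and the PL groups overlapped. Phlda3, a p53 target that restrains AKT at the membrane, was at 23.8, 21.8 and 26.5 CPM in In/B and between 0.696 and 1.60 CPM in all 6 PL libraries (chr1:137662696-137665713, + strand). Atp10a, a phospholipid-transporting ATPase, had the narrowest range of the set in RA-deficient PL, 1.08-fold. It was at 67.0, 73.3 and 76.8 CPM in In/B, at 2.77, 5.19 and 4.17 CPM in RA-sufficient PL and at 4.54, 4.33 and 4.19 CPM in RA-deficient PL (chr7:65913572-66084796, + strand).

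Upstream sequence was examined because the genes were low together. Promoter windows of 250 bases before the annotated start (RefSeq sequences of GRCm38.p6, the first listed start of each gene) were examined for 27 of the 37 genes. Those of the steepest genes with a window outside annotated exons and that of E2f7, the gene called between the PL groups below, are printed 5′ to 3′ on the strand of the gene, each placed in NCBIM37 by an exact match. Capitals mark, on either strand, the CCAAT box, the GC box GGGCGG, which SP1 binds, and the E2F site GCGGGAAA. Where a CCAAT and a GC box or several GC boxes overlap or abut, their capitals run together.
Phlda3 (NCBIM37, chr1:137662412-137662661, + strand): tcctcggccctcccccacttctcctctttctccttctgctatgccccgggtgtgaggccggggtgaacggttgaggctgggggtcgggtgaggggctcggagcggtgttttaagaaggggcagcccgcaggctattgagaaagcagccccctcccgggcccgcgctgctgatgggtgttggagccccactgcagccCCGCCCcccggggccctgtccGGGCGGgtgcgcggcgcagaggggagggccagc
Atp10a (NCBIM37, chr7:65913322-65913571, + strand): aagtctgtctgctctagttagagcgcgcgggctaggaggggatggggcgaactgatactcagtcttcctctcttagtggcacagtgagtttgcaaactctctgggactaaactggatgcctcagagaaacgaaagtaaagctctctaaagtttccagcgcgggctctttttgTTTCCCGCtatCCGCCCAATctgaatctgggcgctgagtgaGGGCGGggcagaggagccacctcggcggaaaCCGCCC
Tshz3 (NCBIM37, chr7:37482887-37483136, + strand): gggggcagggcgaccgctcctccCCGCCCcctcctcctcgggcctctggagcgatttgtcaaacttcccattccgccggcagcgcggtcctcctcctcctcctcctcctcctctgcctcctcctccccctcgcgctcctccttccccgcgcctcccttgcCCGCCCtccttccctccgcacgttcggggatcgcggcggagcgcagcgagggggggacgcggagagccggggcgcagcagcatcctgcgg
Plk5 (NCBIM37, chr10:79818954-79819203, + strand): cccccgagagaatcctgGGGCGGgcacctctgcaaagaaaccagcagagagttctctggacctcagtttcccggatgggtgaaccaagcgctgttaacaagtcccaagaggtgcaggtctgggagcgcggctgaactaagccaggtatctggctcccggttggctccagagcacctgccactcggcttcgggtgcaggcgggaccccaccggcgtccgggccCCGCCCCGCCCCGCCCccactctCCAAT
E2f7 (NCBIM37, chr10:110182245-110182494, + strand): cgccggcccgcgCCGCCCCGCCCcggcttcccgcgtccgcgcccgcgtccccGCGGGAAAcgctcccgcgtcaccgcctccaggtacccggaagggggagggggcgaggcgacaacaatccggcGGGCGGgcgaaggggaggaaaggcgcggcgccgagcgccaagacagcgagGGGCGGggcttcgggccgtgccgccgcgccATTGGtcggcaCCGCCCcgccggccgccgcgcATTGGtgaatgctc

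Promoters on the chromosome that holds Ska1 and Isoc1 were left out of the windows and of the promoters they are compared with. All promoters here means all those used. The median G and C content of the 27 windows was 65.2%, compared with 52% over all promoters and 61.2% over those of genes that met the In/B floor. A GC box was present in 20 of the 27 windows (74.1%), compared with 32.9% of all 27025 promoters and 64.7% of the 7005 promoters of genes that met the In/B floor. A CCAAT box was present in 15 (55.6%), compared with 34.5% and 37.5%. No window held the TATA box TATAAA, which was present in 13% of all promoters and 4.90% of those at the floor. The E2F site was found in Atp10a, 78 bases before the start, and in E2f7, 198 bases before it, which is 2 of 27 windows (7.41%) compared with 0.929% and 2.21%.

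Motifs tied to RA, to meiotic entry or to spermatogonial regulators were in few of the windows, as in few of the promoters at the floor. The retinoid receptor core site AGGTCA was in 3 windows (Adcy1, Dnph1 and Sgms2; 11.1%) compared with 13.8% of all promoters and 9.35% of those at the floor. CNCCTCAG, a motif bound by STRA8 and MEIOSIN, was in 1 window (Fbln2; 3.70%) compared with 6.39% and 7.12%. The E-box CACGTG was in 3 windows (Adcy1, Dnph1 and Met; 11.1%) compared with 6.05% and 9.69%. ACATTGT, the core of the DMRT1 motif, was in none, compared with 2.58% and 1.21%. The median observed-to-expected CpG ratio was 0.729, above the 0.378 over all promoters and below the 0.788 over those at the floor. A match describes the letters of these windows only.

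Several of the genes encode cell surface receptors or their ligands. Ntrk3, the receptor tyrosine kinase for neurotrophin-3, had the second largest ratio, 13.9 (chr7:85337248-85723294, - strand). It was at 34.7, 31.6 and 27.6 CPM in In/B, at 1.98, 1.9 and 1.28 CPM in RA-sufficient PL and at 0, 0.481 and 0.838 CPM in RA-deficient PL, so that the PL groups did not overlap. Met, the receptor for hepatocyte growth factor, was at 79.5, 46.2 and 49.1 CPM in In/B, at 2.30, 4.05 and 3.12 CPM in RA-sufficient PL and at 6.03, 6.77 and 4.11 CPM in RA-deficient PL. Its RA-deficient libraries were all above its RA-sufficient ones, the reverse of Ntrk3. Ephb4, a receptor for ephrin-B2, was at 108, 98.5 and 95.5 CPM in In/B and at 7.53, 9.81 and 7.14 CPM in RA-sufficient PL. In RA-deficient PL, Ephb4 was at 15.1 and 12.2 CPM in replicates 1 and 2 and at 2.60 CPM in replicate 3. Mrc2, the collagen-binding endocytic receptor ENDO180, was at 53.3 ± 9.55 CPM in In/B, and the secreted peptide apelin (Apln) was at 20.4 ± 5.34 CPM.

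Counterparts of 3 of these proteins were scarce in the sorted cells. Ntf3, which encodes the ligand of NTRK3, had no count in any of the 9 libraries, and Hgf, the MET ligand, and Aplnr, the apelin receptor, did not exceed 0.569 and 0.316 CPM. Efnb2, which encodes ephrin-B2, rose while its receptor was low: it was at 6.93, 11.4 and 14.1 CPM in In/B, at 34.7, 37.9 and 35.7 CPM in RA-sufficient PL and at 44.5, 50.2 and 34.2 CPM in RA-deficient PL. By edgeR's quasi-likelihood test the log2 fold change of Efnb2 over In/B was 1.75 ± 0.27 (SE; adjusted p = 0.000572) in RA-sufficient PL and 2.30 ± 0.31 (adjusted p = 0.000965) in RA-deficient PL, and it stayed past the threshold with any 1 library left out. Genes were called by an adjusted p below 0.05 and a log2 fold change beyond 1 in size. Of all genes tested, 26.1% were called higher and 19.3% lower in RA-sufficient PL than in In/B, and 11.4% were called higher and 11.8% lower in RA-deficient PL than in In/B. Of 45 other receptor tyrosine kinases tested, 14 were called higher and 10 lower in RA-sufficient PL than in In/B. In RA-deficient PL 4 were called higher and 3 lower, counts that moved to 1 higher and 7 lower without RA-deficient replicate 1, to 1 higher without In/B replicate 3 and to 2 higher without In/B replicate 2 or RA-deficient replicate 2. Without RA-deficient replicates 1 and 2, in which Kit stayed near its In/B level, only 1 library was left in the group. Counts of calls are not given for that fit, and how far the counts above rest on those 2 libraries cannot be read from it.

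Inside the cell, 2 of the genes act on cyclic nucleotides. Adcy1, a calcium-stimulated adenylyl cyclase, was at 34.4, 24.2 and 22.1 CPM in In/B, at 1.19, 1.39 and 1.83 CPM in RA-sufficient PL and at 0.781, 0.629 and 3.47 CPM in RA-deficient PL. Pde1b, a calcium- and calmodulin-dependent phosphodiesterase, was at 45.9, 22.9 and 22.0 CPM in In/B, at 2.54, 1.39 and 2.70 CPM in RA-sufficient PL and at 0.0744, 0.924 and 0.479 CPM in RA-deficient PL. In/B replicate 1 was well above the other In/B libraries for Pde1b, and the PL groups did not overlap. Of 21 other phosphodiesterases tested, 10 were called higher and 5 lower in RA-sufficient PL than in In/B, and the 5 became 3 without any of In/B replicates 1 to 3 or RA-sufficient replicates 1 and 3. In RA-deficient PL 2 of 19 were called higher and 1 lower, and up to 4 higher and 3 lower without RA-deficient replicate 1. Aif1l, an actin-binding EF-hand protein, was at 30.6 ± 1.24 CPM in In/B, and in RA-deficient PL it had 1 count in each of replicates 2 and 3 but 1.86 CPM in replicate 1. Bves, a cyclic AMP-binding membrane protein of the Popeye family, was at 20.3 ± 3.44 CPM in In/B and at most 3.09 CPM in PL.

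Mitotic and cell cycle genes of the set act at the kinetochore, at the centromere and in the control of E2F targets. Aurkb encodes the kinase of the chromosomal passenger complex, which corrects kinetochore attachments and drives cytokinesis (chr11:68859149-68865166, + strand). It was at 123, 112 and 111 CPM in In/B, at 8.40, 15.2 and 9.89 CPM in RA-sufficient PL and at 6.58, 2.96 and 7.39 CPM in RA-deficient PL. Cenpa, the histone H3 variant of centromeres, was at 70.3, 62.2 and 63.2 CPM in In/B and between 3.33 and 9.87 CPM in the 6 PL libraries, with overlapping PL groups. Ska1, a microtubule-binding subunit of the outer kinetochore, was at 59.7, 62.7 and 59.0 CPM in In/B and between 5.27 and 9.8 CPM in PL. Plk5, a polo-like kinase that lacks a functional kinase domain, was at 43.8, 36.8 and 33.2 CPM in In/B and at 0.396, 1.08 and 0.733 CPM in RA-sufficient PL, and reached 3.25 CPM in RA-deficient replicate 2 but only 1 count in replicate 3.

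Ccng1, a cyclin G and p53 target, was the most abundant gene of the set (chr11:40562054-40568813, - strand). It was at 151, 199 and 198 CPM in In/B, at 22.0, 15.1 and 15.0 CPM in RA-sufficient PL and at 12.2, 8.62 and 11.2 CPM in RA-deficient PL. Per kilobase of annotated exon it was also the highest of the 35 genes with a length, at 52.0 CPM per kilobase in In/B, ahead of Isoc1 at 47.5, Aurkb at 39.1 and Adi1 at 38.6, while Map2 was the lowest at 1.18. E2f7, an atypical E2F that represses cell cycle genes, was at 121, 146 and 143 CPM in In/B, at 7.69, 12.7 and 11.2 CPM in RA-sufficient PL and at 19.6, 17.8 and 22.2 CPM in RA-deficient PL (chr10:110182495-110224440, + strand).

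The partners of these proteins were examined to see whether whole complexes followed, with the partner list drawn up after the 37 genes were known. In the chromosomal passenger complex, Incenp, the scaffold, fell in both PL groups, by 2.35 ± 0.17 (SE) on the log2 scale in RA-sufficient PL (adjusted p = 1.67e-05) and by 2.04 ± 0.12 in RA-deficient PL (adjusted p = 4.76e-05). Birc5 (survivin) fell by 1.06 ± 0.14 in RA-sufficient PL (adjusted p = 0.000276), a call that was lost without In/B replicate 2, and differed by -0.39 ± 0.14 in RA-deficient PL (adjusted p = 0.0578). Cdca8 (borealin) passed in neither, at -0.29 ± 0.12 and 0.60 ± 0.13. In the SKA complex, Ska3 fell in both groups, by 1.98 ± 0.14 (adjusted p = 1.77e-05) and 1.24 ± 0.15 (adjusted p = 0.000687), and Ska2 passed in neither. Of the factors that load CENP-A, Hjurp, its chaperone, fell by 2.18 ± 0.18 (adjusted p = 3e-05) and 1.5 ± 0.25 (adjusted p = 0.00252), whereas Mis18a and Oip5 passed in neither comparison.

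The same unevenness was seen among relatives of E2f7, Aurkb and Plk5. E2f8, the other atypical E2F, fell by 1.89 ± 0.23 (adjusted p = 0.00017) in RA-sufficient and 1.96 ± 0.32 (adjusted p = 0.00249) in RA-deficient PL. E2f3 fell in both, by 2.34 ± 0.15 and 1.76 ± 0.31, and E2f1 passed in neither, at -0.42 ± 0.14 and 0.14 ± 0.12. E2f2 fell by 4.14 ± 0.33 in RA-sufficient PL, and in RA-deficient PL it was at 31.8 and 32.3 CPM in replicates 1 and 2 but at 1.44 CPM in replicate 3. Plk1, the main mitotic polo-like kinase, fell by 2.16 ± 0.18 (adjusted p = 3.21e-05) and 2.37 ± 0.21 (adjusted p = 0.00017), and Plk4, which duplicates centrioles, passed in neither. Plk3 fell by 2.51 ± 0.50 in RA-sufficient PL (adjusted p = 0.00225) and differed by -1.34 ± 0.54 in RA-deficient PL (adjusted p = 0.0883). Aurka, the mitotic spindle kinase related to Aurkb, fell by 1.93 ± 0.23 in RA-deficient PL (adjusted p = 0.000603) and differed by -0.71 ± 0.20 in RA-sufficient PL (adjusted p = 0.0135). Aurkc, the germ cell relative, rose by 1.96 ± 0.46 in RA-sufficient PL (adjusted p = 0.00497) and was at 0.34 ± 1.54 in RA-deficient PL (adjusted p = 0.888). Whether these effects differed between the PL groups is not read from these calls. Of 17 genes that p53 is known to activate, 14 were tested in each case: 3 were called higher and 6 lower in RA-sufficient PL, and 1 higher and 4 lower in RA-deficient PL (2 lower without In/B replicate 3, 2 higher without RA-deficient replicate 3). Bax, a pro-apoptotic member, fell in both, by 2.04 ± 0.14 and 1.49 ± 0.18, and Mdm2, the negative regulator of p53, passed in neither.

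**Figure D3:**
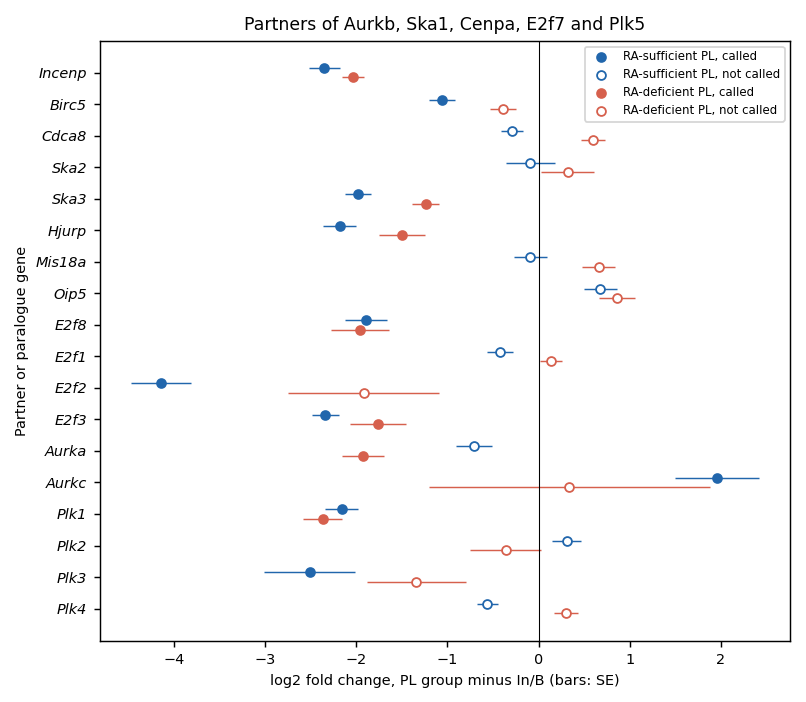
log2 fold change of each PL group over In/B (x axis; bars are SE, 3 libraries per group) for partners and relatives of Aurkb, Ska1, Cenpa, E2f7 and Plk5, none of which is in the set. Filled points passed the threshold. Incenp, Ska3, Hjurp, E2f8, E2f3 and Plk1 fell in both PL groups, while Cdca8, Ska2, Mis18a, Oip5, E2f1, Plk2 and Plk4 passed in neither.

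Transcription factors were a further group. Sox11, a SOX group C factor of neural and other progenitors, was at 54.7, 52.7 and 51.2 CPM in In/B, at 7.06, 6.58 and 3.85 CPM in RA-sufficient PL and at 9.19, 7.14 and 8.42 CPM in RA-deficient PL. It had the smallest distance to RA-deficient PL of the set, 6.41-fold. Tshz3, a zinc finger homeobox factor, was at 30.8, 34.8 and 33.7 CPM in In/B and at 0.872, 1.52 and 1.15 CPM in RA-sufficient PL, and in RA-deficient PL it was at 2.49 and 2.95 CPM in replicates 1 and 3 and at 0.185 CPM in replicate 2 (chr7:37483137-37558476, + strand). Its paralogues Tshz1 and Tshz2 rose in RA-sufficient PL over In/B, by 3.25 ± 0.26 (adjusted p = 2.26e-05) and 2.90 ± 0.31 (adjusted p = 8.84e-05) on the log2 scale, the group in which Sertoli markers were high. Nr2f2 (COUP-TFII), an orphan nuclear receptor, was at 25.6 ± 0.951 CPM in In/B and at most 4.28 CPM in PL. Dmbx1, a paired-type homeobox factor, was at 70.8, 28.1 and 23.3 CPM in In/B, so that replicate 1 stood apart, and at most 4.11 CPM in PL. Nutm1, a testis protein that recruits the acetyltransferase p300, was at 99.1, 122 and 124 CPM in In/B, at 5.07, 9.93 and 6.46 CPM in RA-sufficient PL and at 13.9, 11.9 and 13.6 CPM in RA-deficient PL. None of the 282 genes at the In/B floor with a zinc finger symbol such as Zfp or Zbtb was in the set. The set was 0.421% of all genes at that floor, so few or none would be expected, and Tshz3 carries no such symbol.

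RNA-binding and cytoskeletal genes were mostly at lower levels. Khdrbs2, a STAR family RNA-binding protein, was at 11.8, 11.3 and 11.2 CPM in In/B and had no count in 3 of the 6 PL libraries, with 1.23 CPM in RA-deficient replicate 1 as its highest PL value. It was the only gene of the set too low to be tested between the PL groups. Zcchc24, a zinc knuckle protein, was at 29.1 ± 6.57 CPM in In/B and between 0.838 and 2.66 CPM in PL. Map2, a neuronal microtubule-associated protein, was at 19.4 ± 4.11 CPM and at most 2.63 CPM, and Rflnb, a filamin-interacting protein, at 16.0 ± 4.07 CPM and at most 2.26 CPM. Fam212b (also called Inka2), an inhibitor of the kinase PAK4, was at 22.5 ± 1.28 CPM in In/B and at most 2.94 CPM in PL. Vash1, a tubulin carboxypeptidase, was at 48.1 ± 6.25 CPM in In/B and still at 6.43 ± 0.977 and 6.45 ± 2.11 CPM in the PL groups. Fbln2, an extracellular matrix fibulin, was at 13.0 ± 0.754 CPM in In/B and at most 1.82 CPM in PL.

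The remaining genes belong to metabolism and protein turnover. Usp13, a deubiquitinase, was at 16.6, 16.2 and 14.8 CPM in In/B and between 0 and 1.78 CPM in PL, and RA-deficient replicate 3 had no count. Adi1, an enzyme of the methionine salvage pathway, was at 73.5, 71.9 and 73.1 CPM in In/B and at 8.40, 5.12 and 7.28 CPM in RA-sufficient PL. In RA-deficient PL, Adi1 was at 13.7 and 12.4 CPM in replicates 1 and 2 and at 1.04 CPM in replicate 3, a 13.2-fold range within a group. Isoc1, an isochorismatase-domain protein, was at 123, 119 and 123 CPM in In/B and kept the highest level of the set in RA-sufficient PL, 18.4 ± 3.21 CPM. In RA-deficient PL Isoc1 was at 16.4 ± 7.33 CPM, where E2f7 was higher at 19.9 CPM. Dnph1, which hydrolyses a modified nucleotide, was at 40.3 ± 2.34 CPM in In/B. The lipid enzymes were Sgms2 (sphingomyelin synthase), Lpl (lipoprotein lipase) and Acaa1b (a peroxisomal thiolase), at 25.3 ± 2.60, 14.2 ± 2.42 and 31.4 ± 2.40 CPM in In/B and at most 4.59, 1.65 and 5.36 CPM in PL. Acaa1b has a close copy, Acaa1a, which fell in both PL groups by 1.72 ± 0.26 and 1.70 ± 0.28 on the log2 scale, and reads of the pair may not have been told apart. Exons of Acaa1b, Aif1l, Map2 and Ephb4 shared 224, 168, 124 and 33 bases with a gene on the opposite strand, and whether the counting used strand is not given in the sources used here.

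The 2 PL groups were also compared with each other. The rule required all 6 PL libraries to be low, so a gene that stayed high in RA-deficient PL could not be in the set, and the count of calls within the set cannot answer whether a low level depends on RA made after P11. The values below describe what difference was left between the groups at a low level. Of 15352 genes tested by edgeR, 4.47% were called higher and 11% lower in RA-deficient PL. Of the 36 genes of the set that could be tested, 1 (E2f7, 2.78%) was called higher and 0 lower. E2f7 was 1.10 ± 0.28 (SE) higher on the log2 scale (adjusted p = 0.0296), and all 3 RA-deficient libraries were above all 3 RA-sufficient ones. The median SE was 0.66 for the genes of the set and 0.34 for all genes tested. For 24 of the 36 genes a log2 difference of 1 was less than 2 SE, too little for a call. More than 2 SE was not always enough either: Nutm1, at 1.06 ± 0.34, had an adjusted p of 0.0607 and was not called. A log2 difference of 1 could therefore be missed among the other genes too. Wide SEs were found also at higher counts: Adi1, with 81 to 367 counts in 5 of the 6 PL libraries and 26 in RA-deficient replicate 3, had an SE of 0.80, and Ephb4, with 65 to 406 counts, one of 0.60.

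E2f7 was not a firm call. The call was lost when the replicate number was a block, with library sizes left unscaled and when any of 5 single libraries was left out, with log2 fold changes between 0.92 and 1.25, and leaving out RA-deficient replicate 3 kept it. An unadjusted p below 0.05 was reached by 5 genes, all higher in RA-deficient PL: E2f7, Nutm1 (1.06 ± 0.34), Sgms2 (1.32 ± 0.5), Mrc2 (1.17 ± 0.49) and Met (1.02 ± 0.43), with adjusted p between 0.0296 and 0.133. The share of all genes at this looser limit is not given here. At the stricter limit for a call, 4.47% of all genes tested were higher and 11% lower, so the 5 are not read as an excess. Of the 36, 25 (69.4%) had a positive and 11 a negative log2 fold change, where 46.1% of all genes tested had a positive one. Their median was 0.31, beside -0.09 for all genes tested. With library sizes left unscaled the split was 20 to 16 and the medians were 0.12 and -0.27, so that scaling moved the set and all genes alike, and 26 of the 36 were above the median of all genes either way. Groups that did not overlap were found for 11 of the 37 genes, 5 higher and 6 lower in RA-deficient PL, where 13.1% of all genes tested did not overlap and were higher and 34.3% did not overlap and were lower.

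**Figure D4:**
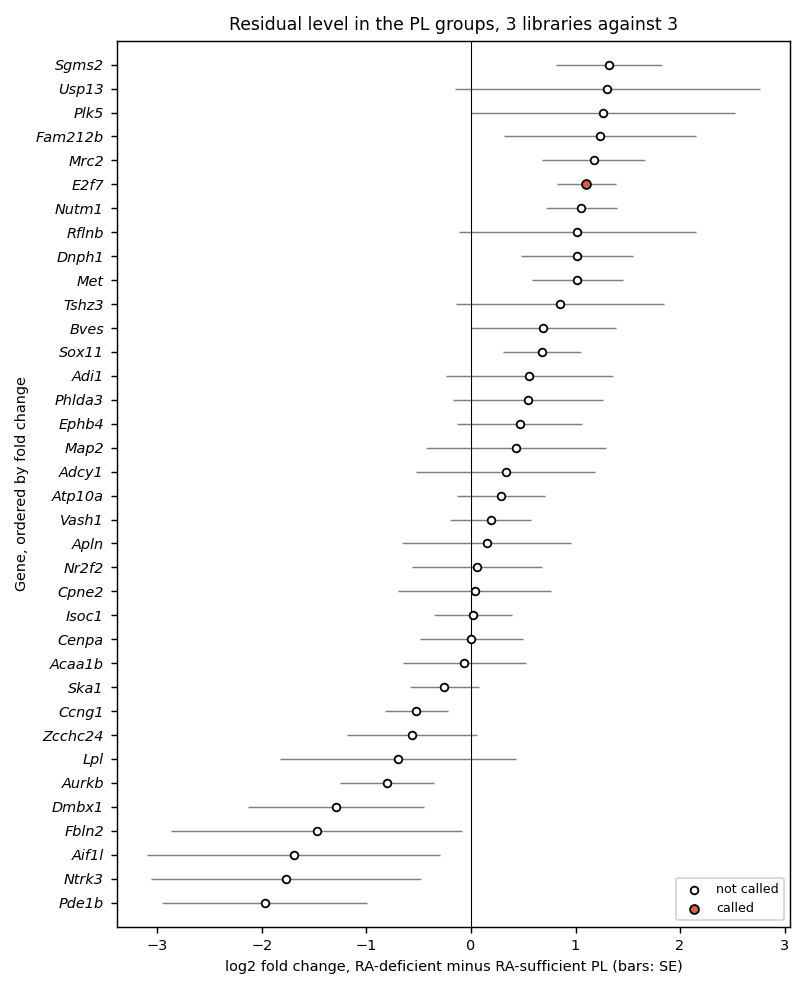
log2 fold change of RA-deficient over RA-sufficient PL (x axis; bars are SE, 3 libraries per group) for the 36 tested genes of the set, ordered by fold change. Only E2f7, at 1.10, passed the threshold; the largest values without a call are Sgms2 at 1.32 and Pde1b at -1.97.

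The RA-deficient libraries differed more among themselves than the RA-sufficient ones. The median coefficient of variation over the set was 51.5% in RA-deficient PL and 29.7% in RA-sufficient PL. RA-deficient replicate 3 was the lowest of its group for 20 genes of the set, replicate 2 for 12 and replicate 1 for 5, while over the other genes at the In/B floor replicate 3 was the lowest for 50.2%. Adi1 shows what this does to a test: without RA-deficient replicate 3 it was called higher in RA-deficient PL (1.10 ± 0.31, adjusted p = 0.0261). With replicates 1 and 2 left out, its log2 fold change was -2.52, which rests on replicate 3 alone. Without replicate 3, Adi1, Dnph1, E2f7 and Mrc2 were called higher. Sox11, Nutm1, Sgms2 and E2f7, in contrast, ranged by no more than 1.57-fold among the 3 RA-deficient libraries.

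The rule was also applied with other scales and with libraries left out. The scale of the CPM values mattered: 30 genes, 29 of the 37 among them, met the rule with TMM-scaled library sizes, and 24 of the 37 met it with median-of-ratios sizes. With RA-deficient replicate 3 left out the rule gave the same 37 genes, whereas with RA-deficient replicates 1 and 2 left out it gave 133 genes, the 37 among them. The 96 added genes included Kit, Dmrt1, Ccnd1, Crabp1 and Esx1 from the list of 30 genes of differentiating spermatogonia. The 37 genes were thus those that were low also in the 2 RA-deficient libraries with Kit and Dmrt1 near their In/B level.

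None of the 37 genes was in the list of stem and progenitor spermatogonia (44 genes in the table) or of differentiating spermatogonia (30 genes), and none was in the lists of cyclins and their kinase inhibitors (which does not hold Ccng1), MYC factors, receptor feedback inhibitors, spermatid, Sertoli, Leydig, peritubular, or macrophage, blood and endothelial genes. The set was only 0.421% of the genes at the In/B floor. Lists this short would be expected to hold few or none of it, so their lack of members is not read as a trait. Genes of the list of stem and progenitor spermatogonia moved in both directions: in RA-sufficient PL 9 of 43 tested were called higher than in In/B and 17 lower, and of 44 tested in RA-deficient PL, 7 were called higher and 2 lower. The 7 became 2 without In/B replicate 2 or 3 and 3 without RA-deficient replicate 1, and the 2 lower became 1 without RA-deficient replicate 3. Tex15, the most abundant of them in In/B and needed for transposon silencing and meiosis, was at 936, 825 and 895 CPM in In/B and at 1647 to 3575 CPM in PL. Of the 30 genes of differentiating spermatogonia, 6 were called higher and 15 lower in RA-sufficient PL, and 8 higher and 6 lower in RA-deficient PL (3 lower without In/B replicate 1). RA-deficient replicates 1 and 2 kept Kit and Dmrt1, both of this list, near their In/B level and replicate 3 did not. The counts in RA-deficient PL mix these unlike libraries. Dnmt1, the maintenance DNA methyltransferase and the most abundant gene of this list, was at 1249, 1186 and 1227 CPM in In/B, at 330, 250.4 and 222 CPM in RA-sufficient PL and at 611, 614 and 295 CPM in RA-deficient PL, so that its distance to PL was smaller than the ratio required here. Of the marker lists, 22 of 22 tested Sertoli genes were called higher in RA-sufficient PL than in In/B and 2 of 23 in RA-deficient PL (1 without In/B replicate 1 or 3 or RA-deficient replicate 1 or 3).

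The 35 genes that could be placed on the mm9 annotation lay on 16 chromosomes, with 5 on chromosome 11, which holds 8.86% of the placed genes at the In/B floor, and 4 on chromosome 7 (7.36%). Their median exon length was 4.38 kilobases and their median gene length 26.0 kilobases, compared with 4.09 and 26.1 kilobases for genes at the In/B floor.

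At the fold limit, the genes just inside were Isoc1, Vash1 and Sgms2 with ratios of 5.06, 5.15 and 5.17, and those just outside were Gm1141, Ikzf1 and Fosl2 with 4.90, 4.89 and 4.82. At the In/B floor, the lowest values inside were those of Khdrbs2, Lpl and Rflnb at 11.2, 11.4 and 11.8 CPM, and the nearest genes below it that met the ratio were Fam81a, Bmp8b and Dusp2 at 8.49, 8.32 and 7.38 CPM.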

How the data were processed

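RNA of FACS-sorted germ cells was sequenced in 9 libraries, 3 per group. Per the labels and the study's methods, the authors trimmed reads with cutadapt 1.9, aligned them to mm9 with STAR 2.5.2b and made the deposited raw counts per gene with featureCounts. The annotation and strand setting are not given in the sources used here. Of the gene names, 26 were spreadsheet dates and 2 stood on a pair of lines, and none was a member. CPM used column totals. The genes and lists were chosen with earlier results of these data known. PL groups, and each PL group and In/B, were compared with edgeR 4.0.16 (quasi-likelihood test, TMM factors, filterByExpr, Benjamini-Hochberg adjustment over all genes tested). The fit was also run on simulated counts with the same dispersion for all genes and libraries. That setting does not hold a library as unlike its group as RA-deficient replicate 3. The study states 2 or 3 independent cell preparations without tying them or animals to libraries, so 3 separate preparations per group are not certain and p-values measure the spread between libraries, which may be technical. Named genes were the 12 with the largest ratio (PL values under 3 counts set to 3), the 8 most abundant in In/B, those called between PL groups, those in a list and those next to a limit, beside at most 3 from each spermatogonial list. The other genes of the set were named for their role and partner genes were chosen after the members were known. Alternatives were RLE factors, unscaled sizes, other filters and limits, a fit of all libraries, a replicate block, DESeq2 1.42.0 and libraries left out.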

Additional observations from a re-analysis of the deposited data

Results flagged for a closer look

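E2f7 was higher in RA-deficient than in RA-sufficient PL by 1.10 on the log2 scale (SE 0.28; edgeR, adjusted p = 0.0296; higher in 3 of 3 libraries), so that its step down from In/B differed between the PL groups by a direct test. The call was lost with the replicate number as a block, with library sizes left unscaled and when any of 5 of the 6 PL libraries was left out. E2f7 was the only gene of the set with such a call. The RA-sufficient libraries also held more Sertoli markers, 5250 to 7406 CPM in sum beside 464 to 795 CPM, and the part of other cells in this difference was not tested.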

How the results depend on the processing

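The number of genes that met the rule stayed within 1.5 times 37 with TMM-scaled sizes (30), In/B floors of 20 and 5 CPM (29 and 45), any 1 library left out (37 to 48) and, chosen after seeing the data, RA-sufficient replicate 1 and RA-deficient replicate 3 left out together (40). It moved to 24 with median-of-ratios sizes, to 6 and 161 with folds of 10 and 3, to 120 with group means in place of extremes and to 133 with RA-deficient replicates 1 and 2 left out, also chosen after seeing the data. The count called higher in RA-deficient than in RA-sufficient PL, 1 by the stated fit, was 2 with DESeq2, 5 with all 9 libraries in a single fit, 0 with unscaled library sizes, 0 to 4 with any 1 library left out and 3 without RA-sufficient replicate 1 and RA-deficient replicate 3. The count called lower, 0 by the stated fit, was 1 (Pde1b) in the single fit and 0 to 1 with any 1 library left out (Aif1l without RA-deficient replicate 1). The cause of these changes was not tested. With the replicate number as a block the counts were 0 higher and 0 lower, and E2f7 was at 1.12 (adjusted p = 0.0623). Same-numbered RA-sufficient and RA-deficient libraries correlated at -0.0608, 0.0298 and -0.0813 in their deviations from the group means, and not every library correlated best with its own number. No pairing by number was seen, but an unlike library in a group can set these deviations, so a pairing could be missed. Of the 222 PL values, 13 were 3 counts or fewer, which limits their precision, and wide SEs were also found at higher counts where RA-deficient libraries differed among themselves, as for Adi1.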

Other observations

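Families that hold 1 gene of the set were not low as a whole. Of 8 other adenylyl cyclases tested in RA-sufficient PL against In/B by edgeR, 4 were called higher and 1 (Adcy3, -1.37 ± 0.22 on the log2 scale) lower. Of those, Adcy9 rose in both PL groups, by 1.44 ± 0.19 (adjusted p = 0.000235) in RA-sufficient and 1.25 ± 0.25 (adjusted p = 0.00601) in RA-deficient PL. Of 8 other copines, 2 were called higher and 3 lower in RA-sufficient PL, and 1 higher and 1 lower in RA-deficient PL (0 higher without any 1 In/B library, 2 lower without In/B replicate 3 or RA-deficient replicate 2 or 3). Khdrbs3, a relative of Khdrbs2, fell in both PL groups, by 1.71 ± 0.36 (adjusted p = 0.00283) and 2.24 ± 0.33 (adjusted p = 0.00164), whereas Khdrbs1 passed in neither. Of the 4 other polo-like kinases, 2 fell in RA-sufficient PL and 1 in RA-deficient PL.

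Of 17 cyclins and inhibitors of cyclin-dependent kinases, 4 were called higher and 5 lower in RA-sufficient PL. In RA-deficient PL 1 of 16 was called higher and 5 lower (3 higher without In/B replicate 1, 2 higher without RA-deficient replicate 3). In the MYC and MAX network 2 of 12 were called higher (1 without In/B replicate 1 or RA-sufficient replicate 1) and 3 lower in RA-sufficient PL, and 2 of 13 in each direction in RA-deficient PL. Of the feedback inhibitors of receptor signalling, 7 of 39 were called higher and 9 lower in RA-sufficient PL, and 4 of 40 in each direction in RA-deficient PL (1 lower without In/B replicate 1, 2 lower without In/B replicate 2 or 3). Leydig, peritubular, and macrophage, blood and endothelial markers were called higher in RA-sufficient PL for 5 of 8 (8 without RA-sufficient replicate 1), 7 of 12 and 7 of 12, and in RA-deficient PL for 0 of 8, 4 of 12 and 0 of 9 (1 without RA-deficient replicate 1). Spermatid markers were called higher for 3 of 6 and lower for 1 in RA-sufficient PL (0 lower without In/B replicate 3 or RA-sufficient replicate 2) and in neither direction in RA-deficient PL. With RA-deficient replicates 1 and 2 left out together, only 1 library was left in that group, so no counts of calls are given for that fit. How far the counts in RA-deficient PL rest on those 2 libraries cannot be read from it.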
